A study of Homo sapiens with 12 samples.

Results

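In A375 cells, a human melanoma line, 98 of the 20263 genes in the deposited table made up the set described here, the genes lowered by DdBIC. They were chosen by measured values. Counts were expressed as CPM, the usual scaling by the library total, and a gene entered when its mean over the 12 libraries was at least 5 CPM, its DdBIC mean was at most 0.65 of its Ctrl mean, every DdBIC library lay below every Ctrl library, and the highest Ctrl library was at most 1.5 times the lowest. Symbols beginning with ZNF, RPL, RPS, PSM, NDUF or MT- were dropped, which removed 2 genes, the mitochondrial MT-ND5 and MT-ND6. The difference between DdBIC and Ctrl therefore defines the genes and is given below as a description, with no test.

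DdBIC (dodecyl 1H-benzo[d]imidazole-5-carboxylate, written DBIC in the sample labels) is a compound that the study describes as a ligand of the nuclear receptor Nur77 and an inducer of pyroptosis, and hemin is the oxidised, iron-containing form of heme supplied from outside. Wild-type A375 cells were left as Ctrl, given DdBIC, given Hemin or given both (DdBIC+Hemin), with 3 libraries in each of the 4 groups, to look for the mechanism of a cell death that hemin inhibits. No doses or times for these libraries are stated in the labels. The study states in general that its data come from independent experiments, but no source used here ties this to the libraries, so the p-values below measure the spread between these libraries, which may be technical.

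Hedgehog ligands act by binding PTCH1, a receptor that holds the pathway off and is itself a target of it, with GAS1 as a co-receptor. WNT ligands bind Frizzled receptors, of which FZD2 and FZD4 are members here, and type IV collagen and perlecan build the basement membrane to which cells attach. Stearoyl-CoA desaturase, encoded by SCD, makes monounsaturated fatty acids.

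The total count per library was 37951275 to 44358912, and the correlation of log2 CPM between libraries of one group was 0.985 to 0.988. The label of the line was checked against marker genes. SOX10 was at 450 to 620 TPM (transcript abundance scaled by gene length), VIM at 2540 to 2880 TPM and AXL at 220 to 266 TPM, whereas the pigment genes PMEL, MLANA, TYR and DCT reached at most 1.18 TPM in any library. KRT1 and PTPRC were at 0 TPM in all 12 libraries, and of the other markers of keratinocytes, fibroblasts, endothelial cells and leukocytes, CD68 reached 35.1 TPM and the rest at most 4.87 TPM. HMOX1, whose product breaks heme down and which responds to it, was at 8.08 to 9.26 CPM in Ctrl, 7.19 to 8.64 in DdBIC, 62.4 to 65.7 in Hemin and 145 to 187 in DdBIC+Hemin.

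The DdBIC mean of the 98 genes was 42.4% to 65.0% of the Ctrl mean, with a median of 60.6%. In the DdBIC+Hemin libraries the median gene stood at 72.5% to 76.5% of its Ctrl mean, against 58.8% to 60.2% with DdBIC alone and 92.0% to 93.3% with hemin alone. The choice of genes fixed the DdBIC and Ctrl ends of this order, and genes picked for low DdBIC values can sit higher in any other group, so the order is a description only. In such bulk samples, fewer cells of a type and less RNA per cell cannot be told apart.

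**Figure D1:**
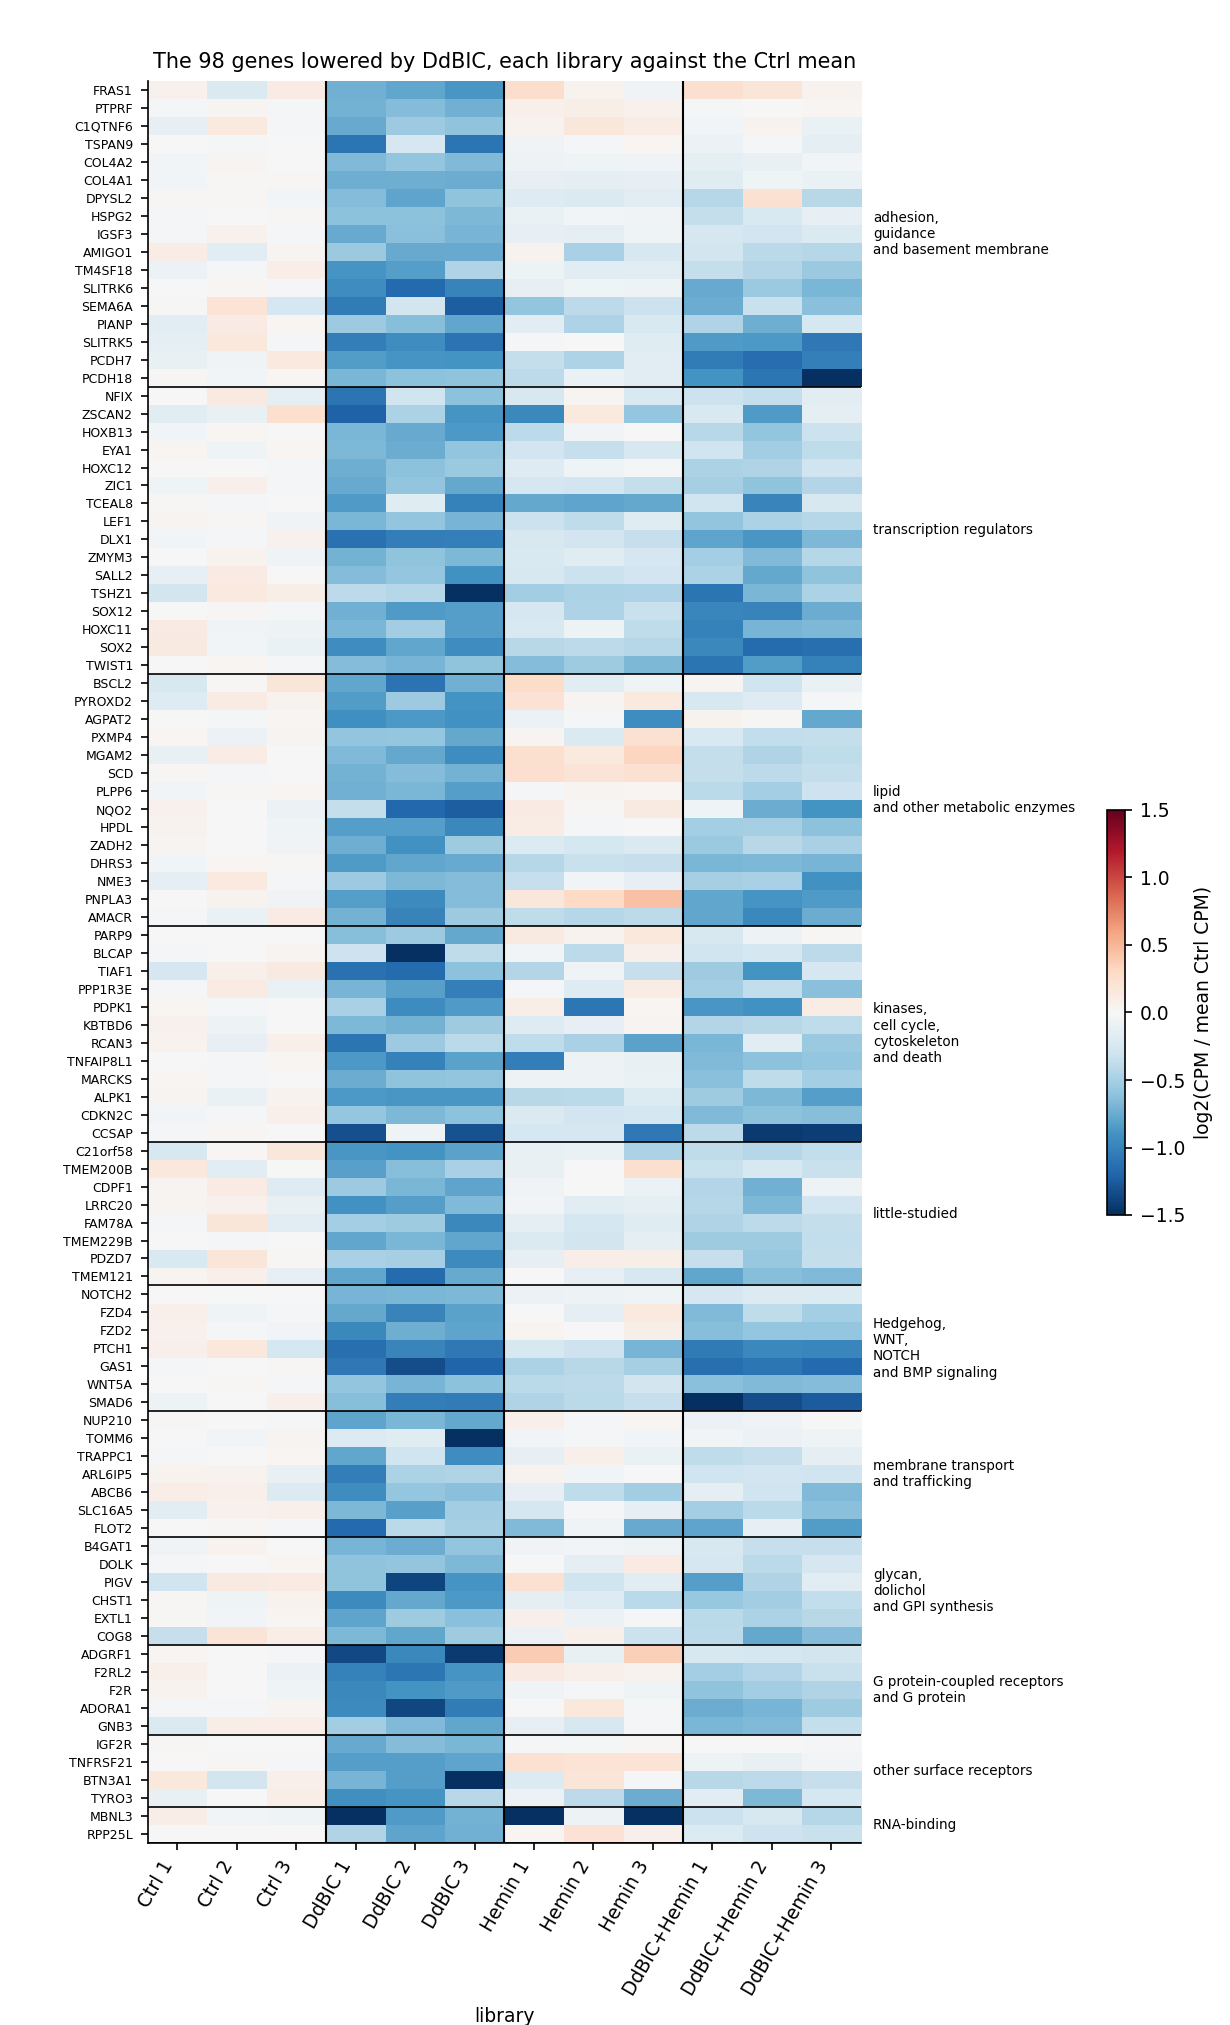
Heat map of the 98 genes (rows, grouped by role) in the 12 libraries (columns). Colour is log2 of the CPM over the mean Ctrl CPM of that gene, and values beyond 1.5 in either direction have the end colour; the DdBIC columns are mostly blue because the genes were chosen that way, while the DdBIC+Hemin columns range from as blue (SOX2, SMAD6, PNPLA3) to pale (IGF2R, PTPRF, COL4A1).

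DdBIC+Hemin against Hemin compares libraries that played no part in the choice of direction, and it asks whether DdBIC lowered these genes when hemin was present in both arms. By edgeR's quasi-likelihood test with p-values adjusted over all 14287 genes tested, 38 of the 98 genes were lower in DdBIC+Hemin than in Hemin and 0 were higher, where 3.09% of all genes tested were lower and 3.71% were higher. With library sizes alone in place of TMM factors, the share of lower calls among all calls in the table moved from 45.4% to 57.7%, and the counts for the 98 genes were 40 and 0. DESeq2 called 44 of the 98 genes lower and 0 higher, where 3.15% of all genes in that fit were lower. The median log2 fold change of the 98 genes was -0.29, and that of all genes tested was -0.0018. Of the 38 genes, 27 stayed past the threshold whichever single library was left out. PTCH1, HOXC11, HOXC12, ZMYM3, AMACR, KBTBD6, ALPK1, DOLK, B4GAT1, RPP25L and TMEM121 lost it without at least 1 library. A fit of the Hemin and DdBIC+Hemin libraries alone called 27 lower, where 1.82% of all genes in that fit were lower.

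The DdBIC+Hemin libraries lay below all Hemin libraries in 66 of the 98 genes, which held for 16.5% of all genes tested, and above all Hemin libraries in 0. The DdBIC+Hemin mean was 45.2% to 184% of the Hemin mean with a median of 80.6%, and in 95 of the 98 genes this percentage was above that of DdBIC over Ctrl, on which the genes had been chosen. Among the 2362 other genes that edgeR called lower in DdBIC against Ctrl, 279 (11.8%) were called lower in DdBIC+Hemin against Hemin. These others were taken by adjusted p alone, without the limits on ratio and level that the 98 met, so the sets are not alike. The exceptions among the 98, with a larger fall in the presence of hemin, were SMAD6, PCDH18 and PNPLA3. The difference between the falls was not tested. For SMAD6 the log2 falls were -0.95 with hemin and -0.88 without it. Its place among the exceptions depended on DdBIC replicate 1, at 6.55 CPM against 4.97 and 4.94 in replicates 2 and 3.

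**Figure D2:**
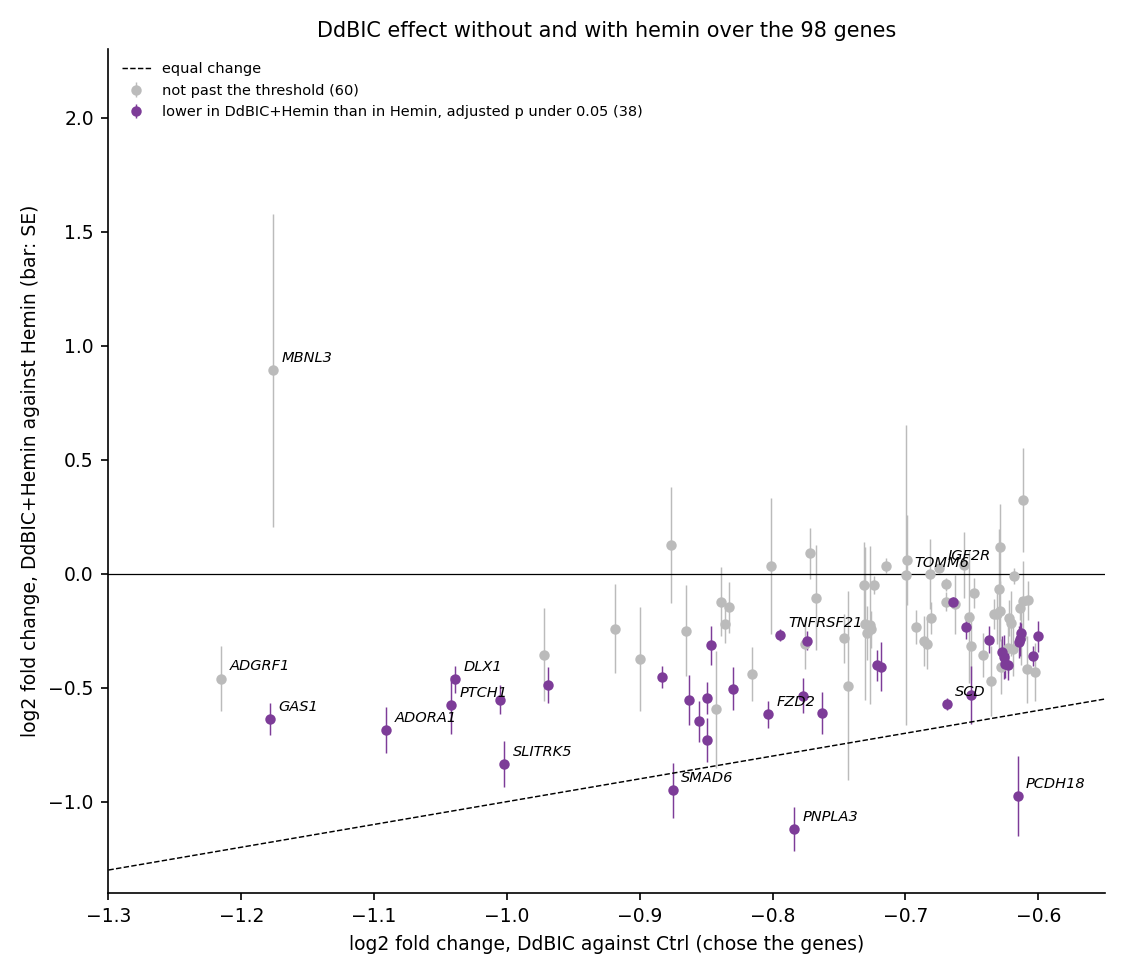
Each point is one of the 98 genes, with the log2 fold change of DdBIC against Ctrl on the x axis and that of DdBIC+Hemin against Hemin on the y axis, and the bar is 1 standard error. The 38 genes called lower with hemin are purple, and SMAD6, PNPLA3 and PCDH18 lie below the dashed line of equal change.

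The return with hemin was expressed as the distance of the DdBIC+Hemin mean from the DdBIC mean, in percent of the distance from the DdBIC mean to the Ctrl mean, so that 0% is the DdBIC level and 100% the Ctrl level. DdBIC and Ctrl libraries chose the genes and set both ends of this scale, so it is a description. The median return was 33.3%. Of the 98 genes, 13 returned by 75% or more, 23 by more than 50%, 40 by 25 to 50% and 35 by less than 25%, and 12 of the last had a DdBIC+Hemin mean below the DdBIC mean. The count past 50% depended on the libraries used to choose the genes, and was 43 of 117 chosen without DdBIC replicate 2, 39 of 104 without DdBIC replicate 3, 36 of 111 without DdBIC replicate 1, 37 of 129 without Ctrl replicate 1 and 51 of 138 with upper-quartile scaling. All DdBIC+Hemin libraries lay above all DdBIC libraries in 53 genes (19.3% of all genes tested) and below them in 5 (24.7% of all genes tested), namely SMAD6, SOX2, PCDH7, TWIST1 and PCDH18. They lay below all Ctrl libraries in 80 genes (19.1% of all genes tested). With hemin alone, all Hemin libraries lay below all Ctrl libraries in 40 genes (13.3% of all genes tested), and this comparison shares the Ctrl libraries on which the genes were chosen.

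**Figure D3:**
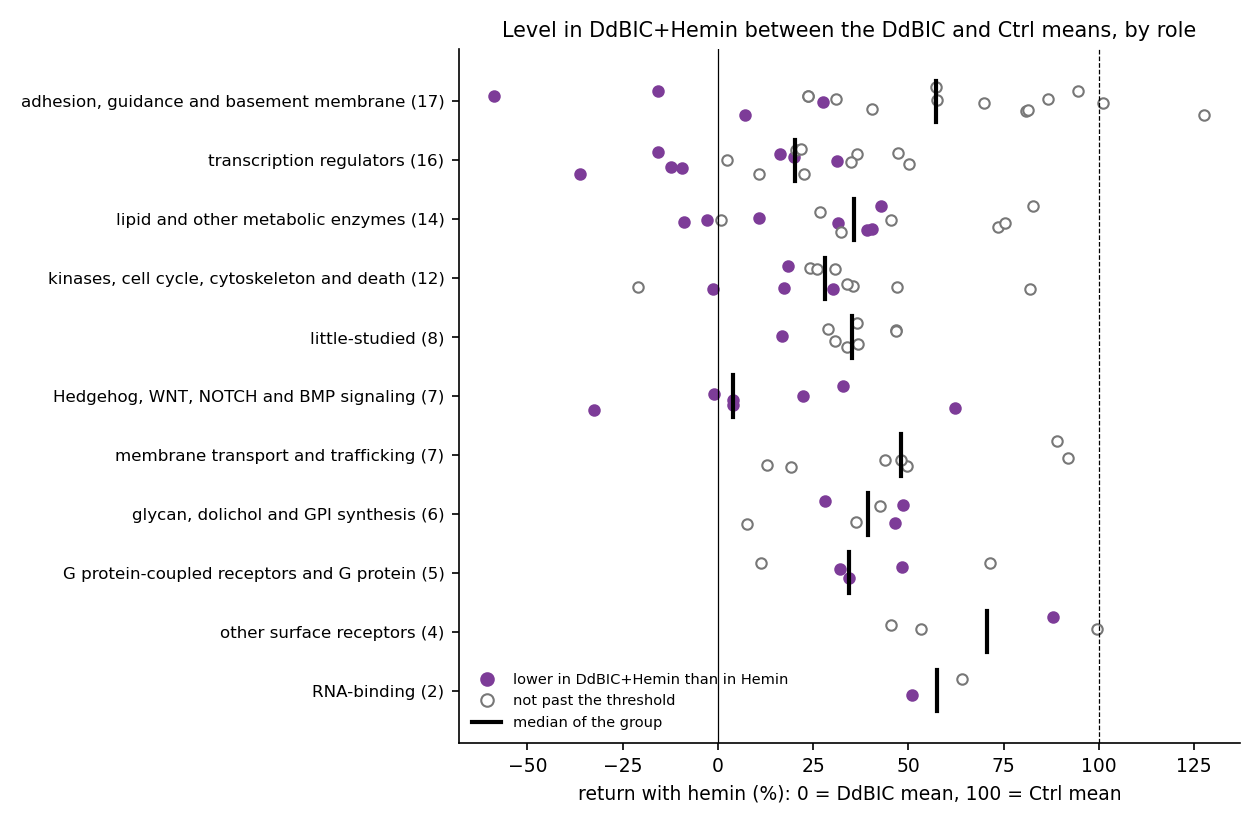
Return with hemin in percent (x axis) for each of the 98 genes, by role (y axis, number of genes in parentheses), with the median of each role as a black bar. Purple points are the 38 genes called lower in DdBIC+Hemin than in Hemin; roles were drawn by hand with results known, and LEF1, a WNT effector with a return of 20.5% and no call, is in the row of transcription regulators and not in that of Hedgehog, WNT, NOTCH and BMP signaling, where the 7 points are purple.

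The promoter windows of RefSeq (GRCh38.p14, 250 bases before to 50 after the start) matched 79 of the 98 genes and 11414 of the genes tested. The 4 upstream stretches shown are those of SCD, GAS1, SOX2 and IGF2R. SCD and GAS1 were lower in DdBIC+Hemin than in Hemin in the test above, with returns of 40.6% and 4.06%. With hemin, SOX2 lay below its DdBIC level and IGF2R lay at its Ctrl level. They run 5′ to 3′ on the strand of the gene and leave out bases inside any GENCODE 29 exon, and capitals mark the searched motifs, which are CCAAT, the GC box GGGCGG and the E-box CACGTG, each in either orientation (ATTGG and CCGCCC are the reverse forms of the first and the second).
SCD, chr10:100346983-100347123, plus strand: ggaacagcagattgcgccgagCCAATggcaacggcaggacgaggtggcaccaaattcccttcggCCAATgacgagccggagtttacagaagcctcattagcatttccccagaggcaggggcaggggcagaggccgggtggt
GAS1, chr9:86947507-86947756, minus strand: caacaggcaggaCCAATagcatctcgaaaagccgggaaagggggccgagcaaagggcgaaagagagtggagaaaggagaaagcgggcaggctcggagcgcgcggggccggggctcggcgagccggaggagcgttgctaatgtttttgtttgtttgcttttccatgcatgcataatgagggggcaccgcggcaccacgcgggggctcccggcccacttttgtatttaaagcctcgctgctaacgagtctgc
SOX2, chr3:181711675-181711923, plus strand: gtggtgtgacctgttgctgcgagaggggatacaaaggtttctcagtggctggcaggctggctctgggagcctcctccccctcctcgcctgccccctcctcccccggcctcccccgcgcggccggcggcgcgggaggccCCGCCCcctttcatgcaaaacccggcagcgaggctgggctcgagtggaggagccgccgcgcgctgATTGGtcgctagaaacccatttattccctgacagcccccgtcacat
IGF2R, chr6:159968832-159969081, plus strand: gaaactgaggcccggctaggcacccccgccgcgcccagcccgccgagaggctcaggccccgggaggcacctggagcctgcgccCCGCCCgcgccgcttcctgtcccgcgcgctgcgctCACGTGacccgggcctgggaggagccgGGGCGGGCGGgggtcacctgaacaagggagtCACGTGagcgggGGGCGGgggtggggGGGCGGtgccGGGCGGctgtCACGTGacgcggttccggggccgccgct

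On both strands of the whole windows, CCAAT was found in 44.3% of the 79 genes and 36.8% of all windows, GGGCGG in 67.1% and 68.7%, CACGTG in 11.4% and 9.98%, and TATAAA in 2.53% and 6.12%. The ETS core CCGGAAG was found in 6.33% of the 79 genes against 18.2% of all windows, and the NRF1 motif GCATGCGC in 0 of 79 against 5.33%. The Nur77 response element AAAGGTCA was found in 0 of 79 and in 0.797% of all windows, which says only that these letters are not in these windows. The median G+C content was 65.7% in the windows of the 79 genes and 65.0% in all windows.

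The counts of lower calls by role stand beside 38 of all 98 genes (38.8%), and differences between roles were not tested. Of 8 genes of Hedgehog, WNT, NOTCH and BMP signaling, 7 were lower in DdBIC+Hemin than in Hemin, and their median return was 12.3%. The eighth, LEF1, did not pass the test and is described and plotted with the transcription regulators. GAS1, the Hedgehog co-receptor (chr9:86944363-86947189, hg38, a gene of 1 exon), was at 19.6, 19.9 and 20.1 CPM in Ctrl, 9.48, 7.89 and 8.63 in DdBIC, 14.3, 14.9 and 14.0 in Hemin and 9.11, 9.42 and 8.84 in DdBIC+Hemin. Its DdBIC+Hemin libraries overlapped the DdBIC ones and lay below the Hemin libraries, with a log2 fold change of -0.64 against Hemin (SE 0.0694, adjusted p = 0.000309). PTCH1 (chr9:95442980-95517057), the Hedgehog receptor, was at 79.2, 84.1 and 62.9 CPM in Ctrl, 34.4, 38.1 and 35.7 in DdBIC, 63.6, 61.0 and 46.5 in Hemin and 36.2, 38.5 and 38.3 in DdBIC+Hemin. Its fall against Hemin was -0.58 on the log2 scale (SE 0.126, adjusted p = 0.021), and its Ctrl and Hemin libraries were more spread than those of its co-receptor. The adjusted p of PTCH1 rose above 0.05 without Hemin replicate 1 or 2 or any one DdBIC+Hemin library, at log2 values of -0.59 to -0.49.

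FZD2, a WNT receptor gene of 1 exon (chr17:44557459-44559570), was at 47.0, 43.96 and 43.8 CPM in Ctrl, 22.98, 27.1 and 26.0 in DdBIC, 46.3, 44.8 and 47.7 in Hemin and 28.9, 30.1 and 30.1 in DdBIC+Hemin. The groups with DdBIC did not overlap those without it, and the log2 fold change with hemin was -0.62 (SE 0.0585, adjusted p = 0.000127). FZD4, the receptor that also binds norrin, was at 69.4% of the Hemin mean (log2 -0.50, SE 0.0939, adjusted p = 0.00844), and it overlaps PRSS23. WNT5A, a ligand of the non-canonical WNT pathway, was at 50.7, 51.1 and 55.4 CPM in Hemin and 43.7, 42.6 and 43.0 in DdBIC+Hemin (log2 -0.26, SE 0.0430, adjusted p = 0.00449). Its Hemin mean was 77.9% of Ctrl, so hemin alone and DdBIC alone both lay below Ctrl.

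SMAD6, an inhibitor of BMP signaling, had the third largest fall of the 98 genes in the presence of hemin, after PNPLA3 and PCDH18. It was at 9.71, 10.2 and 10.7 CPM in Ctrl, 6.55, 4.97 and 4.94 in DdBIC, 7.48, 7.74 and 8.01 in Hemin and 3.503, 4.05 and 4.28 in DdBIC+Hemin, so that the combined treatment gave the lowest libraries of all. The log2 fold change against Hemin was -0.95 (SE 0.121, adjusted p = 0.000843). NOTCH2, the receptor with the highest level of this group, was also lower than in Hemin, by less, and stood closer to Ctrl. It was at 153 to 155 CPM in DdBIC and 208 to 215 in DdBIC+Hemin, against 246 to 249 in Ctrl and 232 to 236 in Hemin, a return of 62.4% with a log2 fold change of -0.12 against Hemin (SE 0.0217, adjusted p = 0.00641), and the calls of NOTCH2 and PTCH1 were lost in the fit of those groups alone. Human NOTCH2 has near-identical NOTCH2NL copies, so its counts may be shared with them.

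**Figure D4:**
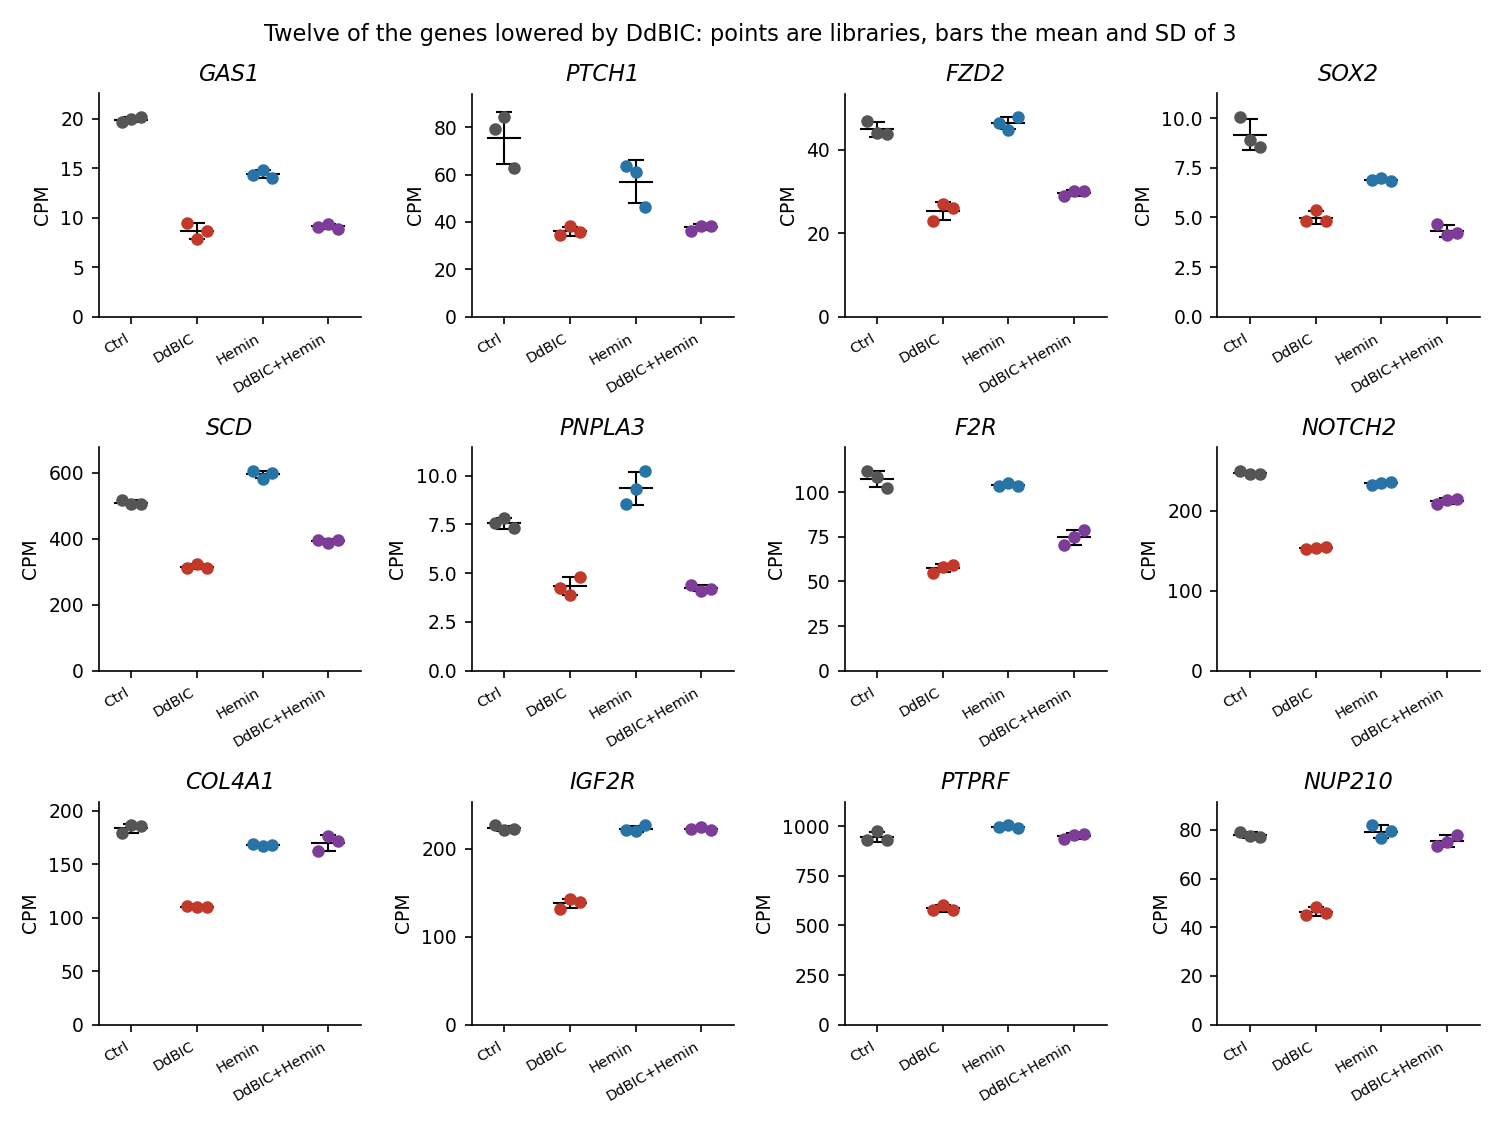
CPM (y axis, from 0) of 12 of the 98 genes in Ctrl, DdBIC, Hemin and DdBIC+Hemin. Points are libraries, the short line is the mean and the bar is the SD of 3 libraries; in the top and middle rows and for PTPRF the DdBIC+Hemin points sit below the Hemin points, and for COL4A1, IGF2R and NUP210 they overlap.

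In a list of 133 genes of developmental signaling (WNT, Hedgehog, NOTCH, BMP and related), 8 were among the 98, or 6.02%, where 0.686% of all genes tested were. Over that list 13 genes were lower in DdBIC+Hemin than in Hemin and 14 were higher, with a median log2 fold change of -0.02. The list as a whole thus had calls in both directions, and 7 of its 13 lower calls were genes described here.

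Of 16 transcription regulators, 7 were lower in DdBIC+Hemin than in Hemin, near the share of 38 in all 98 genes. Their median return was 20.3%. SOX2, a factor of stem and neural crest cells (1 exon), was at 10.04, 8.91 and 8.56 CPM in Ctrl, 4.82, 5.36 and 4.80 in DdBIC, 6.89, 6.97 and 6.82 in Hemin and 4.68, 4.13 and 4.19 in DdBIC+Hemin (log2 -0.65 against Hemin, SE 0.0894, adjusted p = 0.00145). TWIST1, a factor of mesenchymal cells, was at 18.4, 17.8 and 19.0 CPM in DdBIC, 18.4, 19.97 and 18.0 in Hemin and 13.4, 16.1 and 14.3 in DdBIC+Hemin, against 28.5 to 29.3 in Ctrl. DdBIC and hemin alone gave overlapping ranges for this gene, and both together gave a lower one (log2 -0.34 against Hemin, SE 0.0684, adjusted p = 0.0119), a call lost in the fit of Hemin and DdBIC+Hemin alone. SOX12, a relative of SOX2 in the SOXC group, was at 37.7, 32.7 and 35.8 CPM in Hemin and 22.8, 22.5 and 26.9 in DdBIC+Hemin (log2 -0.53, SE 0.0752, adjusted p = 0.00161).

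The homeobox genes DLX1, HOXC11, HOXC12 and HOXB13 were among the regulators. DLX1 was at 43.6, 43.9 and 46.6 CPM in Ctrl, 20.5, 21.8 and 21.9 in DdBIC, 37.7, 36.7 and 35.3 in Hemin and 25.8, 24.4 and 28.0 in DdBIC+Hemin (log2 -0.46 against Hemin, SE 0.0577, adjusted p = 0.000737). HOXC11 and HOXC12 lie 14.2 kb apart on chromosome 12 and were lower by 0.53 and 0.29 on the log2 scale (adjusted p = 0.0288 and 0.0422), while HOXB13 had an adjusted p of 0.15. HOXC11 lost its call without Hemin replicate 1 or 2 or DdBIC+Hemin replicate 1 or 2, at log2 values of -0.58 to -0.43. The fit of Hemin and DdBIC+Hemin alone also lost it. LEF1, the DNA-binding partner of beta-catenin, had a log2 fold change of -0.18 (95% interval -0.32 to -0.03, adjusted p = 0.146) and a return of 20.5%. EYA1, ZIC1 and SALL2 did not pass the test either. In a list of 377 transcription factors, 37 were lower in DdBIC+Hemin than in Hemin and 39 were higher.

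Among G protein-coupled receptors, F2R, the thrombin receptor PAR1, was at 112, 108 and 103 CPM in Ctrl, 54.9, 57.9 and 59.4 in DdBIC, 103, 105 and 103 in Hemin and 70.5, 74.9 and 78.7 in DdBIC+Hemin. The DdBIC+Hemin libraries lay between the DdBIC and Hemin libraries without overlap, and the log2 fold change against Hemin was -0.45 (SE 0.0470, adjusted p = 0.000224). F2RL2, its relative PAR3 at 92.6 kb on the same chromosome, was at 70.2% of the Hemin mean (log2 -0.49, SE 0.0783, adjusted p = 0.00368), and lies within IQGAP2. ADORA1, the adenosine A1 receptor, was at 21.4, 23.7 and 21.1 CPM in Hemin and 12.7, 13.1 and 14.7 in DdBIC+Hemin (log2 -0.69, SE 0.101, adjusted p = 0.00215). ADGRF1, an adhesion receptor, had the lowest DdBIC level of all 98 genes, 42.4% of Ctrl. It was at 9.91, 7.05 and 9.72 CPM in Hemin and 6.44, 6.33 and 6.31 in DdBIC+Hemin (log2 -0.46, adjusted p = 0.085), a return of 71.3%. ADGRF1 did pass the threshold with DESeq2 and without DdBIC replicate 2 or Hemin replicate 2, at log2 values of -0.60 to -0.45. In a list of 114 receptors of this kind, Frizzled genes included, 12 were lower in DdBIC+Hemin than in Hemin and 2 were higher, and 5 of the 12 were genes described here.

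The 4 other surface receptors returned by 45.5% (TYRO3), 53.2% (BTN3A1), 87.9% (TNFRSF21) and 99.5% (IGF2R). IGF2R, which carries mannose 6-phosphate enzymes to lysosomes and takes up IGF2, was at 227, 222 and 222 CPM in Ctrl, 132, 143 and 139 in DdBIC, 221, 220 and 227 in Hemin and 223, 224 and 222 in DdBIC+Hemin. The 3 groups other than DdBIC overlapped, and the log2 fold change of DdBIC+Hemin against Hemin was 0.03 with a 95% interval of -0.04 to 0.09. TNFRSF21, the death receptor DR6, was at 189, 192 and 187 CPM in Ctrl, 107, 106 and 109 in DdBIC, 222, 218 and 218 in Hemin and 179, 174 and 184 in DdBIC+Hemin. It thus had a return of 87.9% and was still lower than in Hemin (log2 -0.27, SE 0.0266, adjusted p = 0.000156), since Hemin was at 116% of Ctrl. It was the 1 gene of the 13 with a return of 75% or more that was called lower.

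The 17 genes of adhesion, axon guidance and basement membrane ranged in return from -58.7% (PCDH18) to 128% (FRAS1). PCDH7 was at -15.8%, IGSF3 at 57.4%, AMIGO1 at 40.6% and SEMA6A at 23.7%. The SEMA6A value depended on single libraries, since the DdBIC libraries of this gene were at 6.65, 11.4 and 5.84 CPM. Of the 17 genes, 4 were lower in DdBIC+Hemin than in Hemin, where 38 of all 98 genes were. A list of 215 adhesion and extracellular matrix genes held 11 lower and 11 higher calls. COL4A1 and COL4A2 encode the 2 chains of the main type IV collagen and are transcribed in opposite directions from a shared region on chromosome 13. COL4A1 was at 179, 186 and 186 CPM in Ctrl, 111, 110 and 110 in DdBIC, 169, 168 and 168 in Hemin and 162, 176 and 171 in DdBIC+Hemin. COL4A2 was at 584, 621 and 602 CPM in Ctrl, 381, 398 and 380 in DdBIC, 570, 578 and 579 in Hemin and 543, 559 and 585 in DdBIC+Hemin. Both pairs of Hemin and DdBIC+Hemin libraries overlapped, with 95% intervals of the log2 fold change of -0.04 to 0.11 and -0.09 to 0.07. The gene models overlap, so reads in the shared part may be counted for either gene.

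PTPRF, a receptor phosphatase of cell contacts and the member with the highest level per length (285 TPM on average), was at 577, 605 and 576 CPM in DdBIC and 934, 953 and 962 in DdBIC+Hemin, against 929 to 976 in Ctrl and 990 to 1004 in Hemin. Its return was 101%, and its log2 fold change against Hemin was -0.05 (95% interval -0.11 to 0.02). FRAS1, a basement membrane protein of epithelia, had the highest return on the CPM scale, 128%, at 4.14 to 4.59 CPM in DdBIC and 7.85 to 8.99 in DdBIC+Hemin. On the TPM scale its DdBIC+Hemin mean stayed below Ctrl, at 1.55 against 1.78 TPM, with 0.615 TPM in DdBIC. HSPG2, which encodes perlecan, had a return of 57.7% with an adjusted p of 0.105 against Hemin. C1QTNF6 and TSPAN9 returned by 94.5% and 86.6%.

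The SLITRK and protocadherin genes, which encode adhesion proteins known from neurons, made up the 4 lower calls of this role. SLITRK5 was at 12.5, 12.8 and 11.2 CPM in Hemin and 7.08, 6.99 and 6.06 in DdBIC+Hemin (log2 -0.84, SE 0.102, adjusted p = 0.000661). SLITRK6, on the same chromosome, was at 67.1% of the Hemin mean (log2 -0.55, SE 0.0646, adjusted p = 0.000482). PCDH7, with 1 exon in its longest model here, was at 8.50, 7.91 and 9.80 CPM in Hemin and 5.27, 4.94 and 5.34 in DdBIC+Hemin (log2 -0.73, SE 0.0967, adjusted p = 0.00113). PCDH18 had the lowest return of the 98 genes, -58.7%. It was at 5.86, 6.16 and 6.21 CPM in DdBIC and 5.10, 4.45 and 2.75 in DdBIC+Hemin, and 7.23, 8.86 and 8.43 in Hemin (log2 -0.98, SE 0.176, adjusted p = 0.00709), with the DdBIC+Hemin libraries spread by a factor of 1.85, and the call was lost in the fit of Hemin and DdBIC+Hemin alone.

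Of 14 lipid and other metabolic enzymes, 7 were lower in DdBIC+Hemin than in Hemin, where 38 of all 98 genes were. A list of 286 genes of lipid metabolism and the peroxisome held 16 lower and 8 higher calls in this comparison. SCD (chr10:100347124-100364834) had the smallest adjusted p of the 98 genes. It was at 518, 505 and 505 CPM in Ctrl, 312, 324 and 311 in DdBIC, 605, 582 and 599 in Hemin and 397, 388 and 398 in DdBIC+Hemin. DdBIC+Hemin was above DdBIC and below Ctrl in every library, and the log2 fold change against Hemin was -0.57 (SE 0.0253, adjusted p = 7.22e-07). PNPLA3, a lipase of lipid droplets, had the largest fall against Hemin. It was at 7.55, 7.83 and 7.30 CPM in Ctrl, 4.26, 3.90 and 4.82 in DdBIC, 8.53, 9.33 and 10.2 in Hemin and 4.41, 4.10 and 4.19 in DdBIC+Hemin, a log2 fold change of -1.12 (SE 0.0969, adjusted p = 6.55e-05). Hemin alone was at 124% of Ctrl for PNPLA3 and 117% for SCD, and with both treatments PNPLA3 overlapped its DdBIC libraries while SCD lay between its DdBIC and Ctrl libraries.

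DHRS3, which reduces retinaldehyde, was at 31.3, 33.3 and 33.1 CPM in Hemin and 26.1, 26.4 and 26.0 in DdBIC+Hemin (log2 -0.29, SE 0.0430, adjusted p = 0.00212). HPDL and PLPP6, both of 1 exon, were lower by 0.54 and 0.40 on the log2 scale (adjusted p = 0.000949 and 0.00521). AMACR, an enzyme of branched-chain fatty acid breakdown, had a return of -8.88% and a log2 fold change of -0.41 (adjusted p = 0.0458). AGPAT2, which makes phosphatidic acid, could not be read in the same way. It was at 107, 112 and 59.8 CPM in Hemin and 118, 115 and 66.95 in DdBIC+Hemin, so that replicate 3 of each group was far below the others, near the 60.01 to 62.5 CPM of the DdBIC libraries. BSCL2, the lipid droplet protein seipin, had a return of 82.8% and overlaps 2 other genes.

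Among the genes of glycan, dolichol and GPI anchor synthesis, B4GAT1 and EXTL1, glycosyltransferases of matrix glycans, were at 83.6% and 74.6% of Hemin (adjusted p = 0.020 and 0.00449). DOLK, dolichol kinase, was at 81.3% (adjusted p = 0.0377). These calls of DOLK and B4GAT1 were lost without most single Hemin or DdBIC+Hemin libraries, at log2 values of -0.30 to -0.21. Both were also lost in the fit of Hemin and DdBIC+Hemin alone. The call of DOLK was lost as well with the replicate block, without Ctrl replicate 1, 2 or 3 and without DdBIC replicate 1. COG8, CHST1 and PIGV did not pass the test, and COG8 overlaps 7 other genes. The returns of these 6 genes were 7.74% to 48.6%. The lowest was that of COG8, whose DdBIC+Hemin libraries (24.7, 19.2 and 20.8 CPM) overlapped the DdBIC libraries (20.5, 19.0 and 22.5), so its sign is not settled. A list of 160 genes of glycosylation and GPI anchor synthesis held 9 lower and 9 higher calls in DdBIC+Hemin against Hemin.

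Of 12 genes of kinases, the cell cycle, the cytoskeleton and cell death, 4 were lower in DdBIC+Hemin than in Hemin. This is near the share of 38 in all 98 genes. A list of 314 signaling kinases and phosphatases held 10 lower and 27 higher calls, and a list of 221 cell cycle regulators 16 and 7. CDKN2C, the CDK4 and CDK6 inhibitor p18, was at 57.9, 58.5 and 62.7 CPM in Ctrl, 39.9, 37.3 and 38.9 in DdBIC, 51.5, 49.1 and 49.9 in Hemin and 37.8, 39.1 and 38.4 in DdBIC+Hemin (log2 -0.36 against Hemin, SE 0.0424, adjusted p = 0.000492). The DdBIC+Hemin libraries lay within the range of the DdBIC libraries. MARCKS, which binds actin and membrane lipids, was lower by 0.40 (adjusted p = 0.00235), KBTBD6, a cullin-3 adaptor of 1 exon, by 0.30 (adjusted p = 0.0279) and ALPK1, a kinase that senses bacterial sugars, by 0.32 with an adjusted p at the threshold, 0.05.

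The 7 genes of membrane transport and trafficking held no lower call, where 38 of all 98 genes were lower, a difference that was not tested. NUP210, a membrane protein of the nuclear pore, was at 45.0, 48.5 and 45.9 CPM in DdBIC and 73.2, 74.98 and 77.9 in DdBIC+Hemin, against 77.2 to 79.1 in Ctrl and 76.5 to 81.8 in Hemin, with a 95% interval of the log2 fold change against Hemin of -0.14 to 0.04. ABCB6, a porphyrin transporter, was at 37.6, 36.9 and 30.4 CPM in Ctrl, 18.3, 23.4 and 22.7 in DdBIC, 32.2, 26.8 and 24.4 in Hemin and 31.8, 28.3 and 22.0 in DdBIC+Hemin. The Hemin and DdBIC+Hemin libraries of this gene overlapped (log2 -0.0, 95% interval -0.34 to 0.34). ABCB6 was the 1 gene of the 98 in a list of 81 heme-binding proteins and heme enzymes. On the TPM scale its fall with DdBIC was smaller, with means of 28.86 TPM in Ctrl and 22.68 TPM in DdBIC. ABCB6 also overlaps 1 other protein-coding gene, and the part of shared reads in its values was not tested. Of the 2 RNA-binding members, RPP25L was lower than in Hemin (adjusted p = 0.045) and MBNL3 is described next. Of 8 little-studied genes, TMEM121 was lower (log2 -0.55, SE 0.109, adjusted p = 0.0113), but not without DdBIC+Hemin replicate 1 (log2 -0.51).

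For 25 of the 98 genes, the libraries of at least one group differed by a factor of 1.5 or more, and the low mean in DdBIC could then rest on single libraries. TOMM6 was at 72.3, 73.8 and 5.44 CPM in DdBIC and 78.3 to 85.6 in the other 9 libraries. MBNL3 was at 1.10, 4.51 and 4.96 CPM in DdBIC and 1.07, 7.67 and 1.79 in Hemin. PDPK1 was at 79.4, 34.8 and 75.3 CPM in Hemin and 40.4, 39.3 and 79.6 in DdBIC+Hemin, CCSAP at 12.97, 31.1 and 13.1 CPM in DdBIC, and TSHZ1 at 35.04, 34.2 and 12.7. Human PDPK1 and TYRO3 have near-identical pseudogene copies, and 26 of the 98 genes, TOMM6 among them, overlap another protein-coding gene. The part of shared reads in these values was not tested. Among the 73 genes without such a spread, 37 of the 38 lower calls were found, the other being PCDH18, and 32 of the calls were among the 72 genes that overlap no other protein-coding gene.

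The genes were spread over 23 chromosomes, and 10 of them lay in 5 pairs within 150 kb of each other, which besides the pairs of HOXC, type IV collagen and thrombin receptor genes were ZADH2 with TSHZ1 and PIANP with GNB3. The number of exons was a property the choice did not use. Of the 98 genes, 10.2% had 1 exon in their longest GENCODE 29 model and 30.6% had 1 or 2, against 1.81% and 5.94% of the genes measured at 5 CPM or more. Few exons went with change by DdBIC in both directions, since 31.2% of all such genes with 1 exon were called lower and 31.8% higher in DdBIC against Ctrl, and 20.8% and 22.8% of those with 3 or more. The median gene span of the 98 genes was 18.4 kb, and that of all genes tested was 30.7 kb.

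The share of lower calls with hemin differed with the number of exons. Of the members with 1 exon, 9 of 10 were lower in DdBIC+Hemin than in Hemin, of those with 2 exons 12 of 20, and of those with 3 or more 17 of 68. Over all genes of at least 5 CPM, lower calls made up 21.4% of 192 genes with 1 exon, 10.9% of 439 with 2 and 3.20% of 9994 with 3 or more, and higher calls 8.33%, 10.5% and 4.34%. When members and histone genes were left out, 17.0% of 176 genes with 1 exon were lower, so the difference was not confined to the genes chosen. The members with 1 exon had a median level of 12.3 CPM and those with 3 or more of 23 CPM. Their median log2 fold change in DdBIC against Ctrl also differed, at -0.83 with 1 exon, -0.69 with 2 and -0.68 with 3 or more. The median returns were 26.4%, 29.4% and 36.6%. Why calls differed with exon number was not tested.

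At the edge of the choice, NME3 and DOLK lay just inside with ratios of DdBIC to Ctrl of 0.6488 and 0.6496, and SOBP and NIPSNAP3A just outside with 0.6509 and 0.6514. A further 16 genes met every condition but the limit on the spread of the Ctrl libraries. No member came from lists, drawn by symbol and not complete, of 313 centrosome, cilium and coiled-coil genes, 197 chromatin regulators, 78 mitochondrial ribosomal proteins or 59 histone genes. Members made up 0.686% of all genes tested, so lists of these sizes would hold few or none, and no conclusion is drawn from their absence. CCSAP, described above, encodes a centriole and spindle protein that the first of these lists does not hold.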

How the data were processed

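RNA was extracted with Trizol from A375 cells and sequenced as 12 libraries. The authors deposited one table of 20263 genes with raw read counts per gene, TPM values, which the authors scaled by gene length and library, and FPKM values, which were not used here. The submitters' processing notes name Trim Galore, Subread, featureCounts and hg38. Versions and the use of strand are not given in the sources used here, so genes that overlap on opposite strands cannot be told apart. All columns matched a sample label.

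CPM was computed from the deposited counts and the library totals. At 37951275 to 44358912 counts per library, a count of 0 allows up to 3 counts. The test was the quasi-likelihood F-test of edgeR 4.0.16, run in R 4.3.3 on the 4 groups together (14287 genes after filterByExpr, TMM factors, 8 residual degrees of freedom), with Benjamini-Hochberg adjustment and a threshold of 0.05. Standard errors were derived from F and the log2 fold change. DESeq2 1.42.0 was an alternative. On simulated counts of 14287 genes with 200 changed, DdBIC+Hemin against Hemin recovered 83% of log2 changes of 1 and 46% of 0.5, with 0 in the wrong direction and 3.01% false calls. Library totals and TPM came from the deposited table, exons from GENCODE 29 and promoters from RefSeq, matched by symbol or synonym.

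The genes, roles, classes, motifs and named-gene rule were chosen with earlier results of these data known. Named were the 10 lowest ratios, 8 highest and 8 lowest returns, 5 highest TPM, 5 smallest adjusted p in each direction, up to 4 genes of each class with at least 3 members, and 2 genes on each side of the threshold. Others are named for their role or position after their values were seen. The same fit gave calls for DdBIC against Ctrl over all genes, used here to count other lower genes and calls by exon number. For the 98 genes only DdBIC+Hemin against Hemin is given as a test, since DdBIC and Ctrl libraries made the choice. Each of the 12 libraries was left out in turn.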

Additional observations from a re-analysis of the deposited data

How the results depend on the processing

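The count of genes lower in DdBIC+Hemin than in Hemin was 38 and was 27 to 44 under DESeq2, upper-quartile normalization, library size only, other count filters and a fit of only those groups, and 30 to 39 without one library. It was 0 for higher in all of them. Replicate numbers did not pair the libraries (correlations of same-numbered deviations -0.046 to 0.081); a fit with the replicate block gave 35 lower, 0 higher and a median of -0.29. The median log2 fold change was -0.31 to -0.26 without one library. Of the 38 genes, 27 stayed lower in all 12 fits without a library and 38 kept a negative value in all 19 alternative fits. Of 56 named genes, 28 passed the threshold, 8 of these lost it in some fit and 0 reversed. ADGRF1, NME3 and PPP1R3E did not pass it in the main fit and did in some other fit. Without single libraries, values near 0 changed sign for TOMM6 (-0.018 to 0.0088), COL4A2 (-0.043 to 0.013), ZSCAN2 (-0.19 to 0.41), AGPAT2 (-0.11 to 0.34) and TYRO3 (-0.091 to 0.23); their cause was not tested.

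The number of genes chosen was 98, and 47 with a ratio of 0.60, 209 with 0.70, 183 with a mean CPM of at least 1 and 46 with at least 20, fewer or more by construction; without one library it was 97 to 129. TMM scaling in the choice kept 81 of the 98, and the deposited TPM kept 66. Genes past a return of 50% numbered 23, and 51 of the 138 genes chosen with upper-quartile scaling, 10 and 65 with the ratios of 0.60 and 0.70, 65 and 15 with the levels of 1 and 20 CPM, and 23 to 43 without one library. The largest counts came without DdBIC replicate 2 (43) and DdBIC replicate 3 (39), 37 came without Ctrl replicate 1 and 36 without DdBIC replicate 1. Log2 falls under 0.5 are below what this depth and 3 libraries recover in most genes.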
